A study of Gallus gallus with 14 samples.

Results

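AMH, SOX9, DMRT1 and FOXL2 are 4 genes of avian sex determination, and each was followed through its RefSeq transcript in the RNA-seq table of the chicken study. The members were picked by transcript identifier, not by level, and are 4 of the 42501 transcripts in the table. Strand-specific total RNA was sequenced in 6 libraries of JA57 broiler chickens, 2 from E11 male gonads (E11G, libraries T1 and T2), 2 from E14 male gonads (E14G, T3 and T4) and 2 from blastodermal cells (BC, T5 and T6). Each library was a pool, of left-side gonads from incubated embryos or of whole blastoderms from fresh fertilized eggs that had not been incubated, and the labels name no treatment or transgene in any group. The gonads are labelled male, whereas the blastoderms have no sex in the labels. A gonad pool holds supporting, steroidogenic, germ, stromal and blood cells together. Levels are FPKM, the fragments mapped to a transcript scaled by its length, so that genes of different length can be compared. They were also scaled for library size, across the libraries, by Cuffnorm.

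In birds the male carries a pair of Z chromosomes and the female a Z and a W. DMRT1, a Z-linked transcription factor of the DM domain family, is required for testis formation in the chicken. AMH (anti-Müllerian hormone), a secreted ligand of the TGF-beta family that makes the Müllerian ducts regress, and SOX9, an HMG-box transcription factor of Sertoli cells, are made in the testis. FOXL2, a forkhead transcription factor, marks the ovarian supporting cells and is known as an activator of CYP19A1, the aromatase that makes oestrogen.

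On the galGal5 build, the AMH transcript (NM_205030) spans 2018795 to 2022986 on chromosome 28. SOX9 (NM_204281) spans 8866456 to 8869366 on chromosome 18, DMRT1 (NM_001101831) 25949769 to 25952099 on chromosome Z, and FOXL2 (NM_001012612) 5720187 to 5721316 on chromosome 9. AMH has the splicing factor gene SF3A2 at a distance of 1238 bases, with 32.5 to 49.8 FPKM in the gonads and 69.8 and 81.9 FPKM in BC. PLEKHJ1 lies 6460 bases from AMH. An unnamed Ensembl transcript (ENSGALT00000053233.1) lies 356 bases from SOX9, and whether it is part of the SOX9 transcript was not tested. That transcript had 12.3, 11.2, 15.8 and 15.4 FPKM in T1 to T4 and 1.79 and 1.18 FPKM in T5 and T6, high and low in the same libraries as SOX9. No other transcript of the table lay within 10 kb of the spans given for DMRT1 and FOXL2. All distances here and below are counted from these spans (2331 bases for DMRT1), which may not cover a whole gene. Whether strand was used in the quantification is not given in the sources used here, so reads from overlapping antisense transcripts cannot be told apart.

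Before the genes were compared, the label of each gonad library was checked against the W chromosome, which males lack. Of the transcripts placed on W, 19 had at least 1 FPKM in both BC libraries. Their summed level was 162 FPKM in T5 and 169 FPKM in T6. It was 5.66 FPKM in T2, 5.49 in T3 and 6.06 in T4, and in each of these libraries 18 of the 19 transcripts were below 0.1 FPKM. In T1, labelled male like the others, the sum was 44.7 FPKM, and 11 of the 19 transcripts reached 1 FPKM. All 19 were higher in T1 than in every other gonad library, and their median level in T1 was 0.279 of the BC mean. Since the 19 were picked by their level in BC, that choice shaped their comparison with BC. HNRNPKL, the W-linked copy of an RNA-binding protein gene, had 9.02 FPKM in T1 and at most 0.0254 FPKM in T2, T3 and T4. All 78 transcripts placed on W summed to 61.6 FPKM in T1 and 18.7, 20.2 and 29.6 FPKM in T2, T3 and T4. In T5 and T6 they summed to 171 and 175 FPKM. The 148 transcripts on W random scaffolds set T1 less apart. They summed to 237 FPKM in T1, 211, 225 and 229 in T2 to T4, and 327 and 359 in T5 and T6.

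The ovarian marker CYP19A1 set T1 apart as well. It had 115.9 FPKM in T1, between 0.0137 and 0.0188 FPKM in the other gonad libraries, and was listed at 0 in both BC libraries. HSD17B1, an enzyme that reduces oestrone to oestradiol, had 18.0 FPKM in T1 against 1.68, 0.606 and 0.797 FPKM in T2, T3 and T4. Most other genes listed for the ovary did not set T1 apart in this way. In T1 and T2, FST had 7.21 and 7.97 FPKM, ESR1 22.1 and 21.6, and ALDH1A2 112 and 122. CTNNB1 had 203 and 206 FPKM, WNT4 5.57 and 4.52, and LEF1 25.2 and 21.3. RSPO1 was higher in T1 (0.337 FPKM) than in T2 (0.0486 FPKM), both under 1 FPKM. Library T1, labelled E11 male gonad, thus held placed W and aromatase transcripts that T2 did not hold at such levels. T1 and T2 are given separately throughout, and the comparisons of the 4 genes are given with and without T1. The separate reading of T1 and T2 was set when the genes were chosen, with earlier results of these data known.

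**Figure D1:**
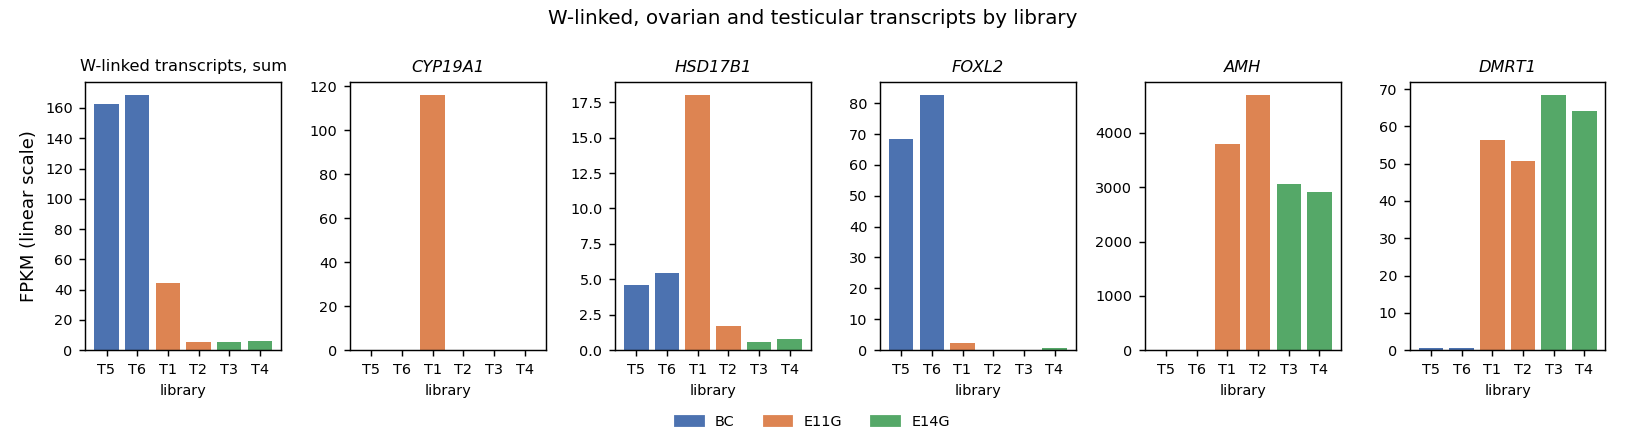
FPKM on a linear axis that starts at 0 in each of the 6 libraries (BC blue, E11G orange, E14G green, 1 bar per library, each panel with its own scale) for the sum of 19 W-linked transcripts, CYP19A1, HSD17B1, FOXL2, AMH and DMRT1. T1 holds 44.7 FPKM of the W-linked transcripts and 115.9 FPKM of CYP19A1, with AMH at 3797 and DMRT1 at 56.3 FPKM beside the other gonad libraries.

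AMH, SOX9 and DMRT1, taken here as Sertoli cell markers, were present in all 4 gonad libraries, T1 included. Which cells of the pools held them was not tested. AMH was among the most abundant transcripts of the gonads. It had 3797 FPKM in T1, 4696 in T2, 3056 in T3 and 2906 in T4, and 5.33 and 4.97 FPKM in the BC libraries T5 and T6. Every gonad library was far above both BC libraries, and both E11 libraries were above both E14 libraries, with T2 the highest of all. Ranked from the top of the 42501 transcripts, AMH stood at place 16 in T1, 15 in T2, 21 in T3 and 20 in T4, and at places 10127 and 10518 in BC. The stage means were 4247 ± 636 FPKM (SD, n = 2) in E11G, 2981 ± 106 in E14G and 5.15 ± 0.257 in BC.

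DMRT1 was the next in level among the members in the gonads. It had 56.3 FPKM in T1, 50.8 in T2, 68.4 in T3 and 64.1 in T4, against 0.666 FPKM in T5 and 0.577 in T6. The gonad and BC libraries did not overlap, and both E14 libraries were above both E11 libraries. The means were 53.5 ± 3.92 FPKM (SD, n = 2) in E11G, 66.2 ± 3.05 in E14G and 0.622 ± 0.0624 in BC, where both libraries were under 1 FPKM. T1 was above T2 for this Z-linked gene. Over 603 Z-linked transcripts with 1 FPKM or more in every library, the median log2 difference from the BC mean exceeded that of 11836 such autosomal transcripts by 0.34 in T1, 0.40 in T2, 0.43 in T3 and 0.43 in T4, so that T1 had the smallest excess of the gonad libraries.

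SOX9 was lower than AMH and DMRT1 in the gonads. It had 15.9 FPKM in T1, 13.7 in T2, 19.0 in T3 and 25.5 in T4, and 2.30 and 3.405 FPKM in T5 and T6. All gonad libraries were above both BC libraries and T4 was the highest. The means were 14.8 ± 1.55 FPKM (SD, n = 2) in E11G, 22.3 ± 4.61 in E14G and 2.85 ± 0.778 in BC. The E14 mean rests on 2 libraries that differed by more than those of E11.

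FOXL2 had the opposite order of stages. It had 68.3 FPKM in T5 and 82.6 in T6, the blastoderm libraries, against 2.45 FPKM in T1, 0.188 in T2, 0.0869 in T3 and 0.554 in T4. T1 was the highest gonad library and the one above 1 FPKM, while the E11 and E14 libraries overlapped. The means were 75.4 ± 10.1 FPKM (SD, n = 2) in BC, 1.32 ± 1.60 in E11G and 0.320 ± 0.330 in E14G, so that in both gonad stages the SD exceeded the mean. The gonad mean was 0.820 ± 1.11 FPKM (n = 4) with T1 and 0.276 ± 0.245 FPKM (n = 3) without it. By rank, FOXL2 stood at places 1692 and 1441 in BC, and between 14261 in T1 and 26502 in T3 in the gonads.

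**Figure D2:**
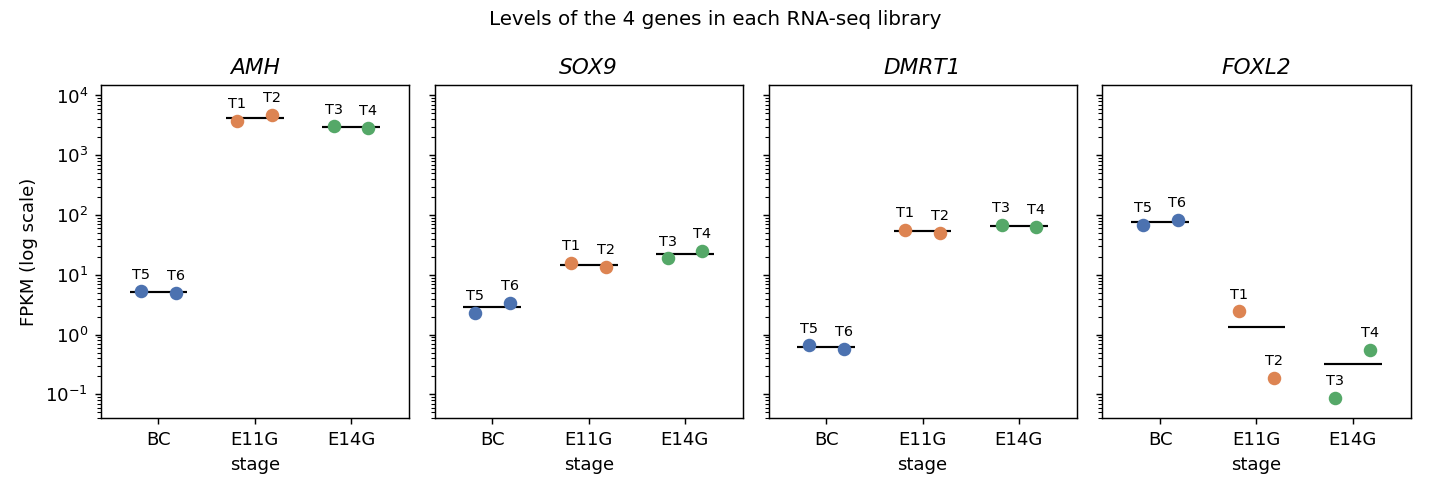
FPKM on a log axis of AMH, SOX9, DMRT1 and FOXL2 in each library (points, labelled T1 to T6) by stage, with a horizontal line at the arithmetic mean of the 2 libraries of a stage. AMH, SOX9 and DMRT1 lie higher in all gonad libraries than in BC, FOXL2 lies higher in BC, and T1 and T2 are set apart for FOXL2 at 2.45 and 0.188 FPKM but lie close for the other genes.

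The ratios within a library do not depend on its scaling. AMH exceeded SOX9 by 239 times in T1, 343 times in T2, 161 times in T3 and 114 times in T4, and by 2.31 and 1.46 times in T5 and T6. The ratio of DMRT1 to SOX9 was 3.54 in T1, 3.71 in T2, 3.60 in T3 and 2.51 in T4, which is a narrow range beside that of AMH to SOX9. In BC, DMRT1 was below SOX9, with ratios of 0.289 and 0.170. FOXL2 relative to DMRT1 was 0.0435 in T1, 0.00371 in T2, 0.00127 in T3, 0.00864 in T4, 103 in T5 and 143 in T6. This ratio was thus higher in T1 than in the other gonad libraries, and far higher still in BC.

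To compare the genes before and after spermatogonia formation, E14G was set against E11G by limma fitted to log2(FPKM + 1) of the 6 libraries together, with Benjamini-Hochberg adjustment over 22368 transcripts. None of the 4 genes passed the threshold of 0.05, where 3.84% of all transcripts did (1.52% higher and 2.32% lower in E14G). AMH differed by -0.50 (SE 0.12, 95% interval -0.81 to -0.20, adjusted p = 0.0882), an E11 level 1.42 times that of E14. SOX9 differed by 0.55 (SE 0.20, 0.04 to 1.06, adjusted p = 0.191) and DMRT1 by 0.30 (SE 0.09, 0.08 to 0.52, adjusted p = 0.122). These intervals are not adjusted for the number of transcripts. FOXL2 differed by -0.64 with an interval from -1.94 to 0.66 (adjusted p = 0.509). The libraries of both stages did not overlap for AMH, SOX9 and DMRT1, nor for 53.2% of all transcripts (28.2% higher and 25% lower in E14G).

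Without T1, the E14G against E11G difference was -0.66 for AMH (adjusted p = 0.0856), 0.65 for SOX9 (adjusted p = 0.275) and 0.38 for DMRT1 (adjusted p = 0.162) by limma. FOXL2 turned from -0.64 to 0.13 (adjusted p = 0.831), so its direction between the stages was set by T1. The lone E11 library is then assumed to vary like the other groups. No source says that the pools of a stage came from separate collections of eggs, so the p-values measure only the spread between these libraries.

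Other genes of gonad formation were taken from lists of known roles, and 46 of their 67 genes could be matched to a transcript. Among 6 matched genes of the bipotential gonad, 1 fell from E11G to E14G, beside 2.32% of all transcripts. This was LHX9, a LIM homeobox factor needed for the gonadal ridge, with 89.3 and 90.04 FPKM in T1 and T2 against 50.6 and 56.5 FPKM in T3 and T4 (log2 difference -0.74, adjusted p = 0.0236 by limma). NR5A1, the nuclear receptor SF-1 that acts with SOX9 on AMH in mammals, had 27.6, 25.6, 36.5 and 37.3 FPKM in T1 to T4 and did not pass (0.46, adjusted p = 0.0697). GATA4, a zinc-finger factor of the early gonad, had 88.2 to 91.5 FPKM in the gonad libraries, with a difference of 0.02 (interval -0.13 to 0.17).

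Among the testis genes, 7 of 8 matched were tested, and 1 rose, beside 1.52% of all transcripts. PTCH1, the hedgehog receptor, had 6.15 and 7.10 FPKM in T1 and T2 and 10.3 and 11.2 FPKM in T3 and T4 (0.62, adjusted p = 0.0484 by limma). INHBB, the beta B subunit of inhibin and activin, had 20.8, 21.7, 36.3 and 55.3 FPKM in T1 to T4 and missed the threshold (1.04, adjusted p = 0.0569), as did SOX8, a close relative of SOX9, with 0.63 (adjusted p = 0.0567). PTGDS, a prostaglandin D synthase linked to SOX9 in mouse testis, ranged from 8.78 FPKM in T3 to 24.2 FPKM in T1 with no order of the stages. INHA, the inhibin alpha subunit, has 2 rows in the table, both listed at 0 in all libraries, and was not tested. The list had a median log2 difference of 0.16, where the median of all transcripts was 0.01.

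For the AMH pathway, the type I receptors and the SMAD proteins that relay the signal were matched. Of these 6 genes, 1 fell, beside 2.32% of all transcripts. It was SMAD9, a receptor-regulated SMAD, with 7.49 and 7.59 FPKM in T1 and T2 and 4.79 and 4.96 FPKM in T3 and T4 (-0.54, adjusted p = 0.0482 by limma). The receptors BMPR1A (23.5 to 28.2 FPKM in the gonads) and ACVR1 (24.2 to 25.2 FPKM) differed by 0.20 and 0.04 between the stages, and neither passed. The type II receptor gene AMHR2 was not matched and is not analysed here.

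Of 8 ovary genes tested, 2 fell from E11G to E14G and none rose, beside 2.32% and 1.52% of all transcripts. ESR1, the oestrogen receptor alpha, had 22.1 and 21.6 FPKM in T1 and T2 against 10.5 and 10.7 FPKM in T3 and T4 (-0.98, adjusted p = 0.0149 by limma). ALDH1A2, an enzyme of retinoic acid synthesis, had 112, 122, 70.9 and 62.5 FPKM in T1 to T4 (-0.81, adjusted p = 0.0240). In both genes T2 lay with T1, unlike in CYP19A1 and HSD17B1, which were high in T1 alone among the gonad libraries and did not pass (-3.42, adjusted p = 0.397, and -2.07, adjusted p = 0.241). Without T1, 0 of the ovary genes, 0 of the bipotential genes, 0 of the testis genes and 0 of the AMH pathway genes passed the threshold in the limma fit, in which 53 transcripts passed in all. With the gonad libraries alone, 2 of 20316 transcripts passed, and none of these lists held a call.

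**Figure D3:**
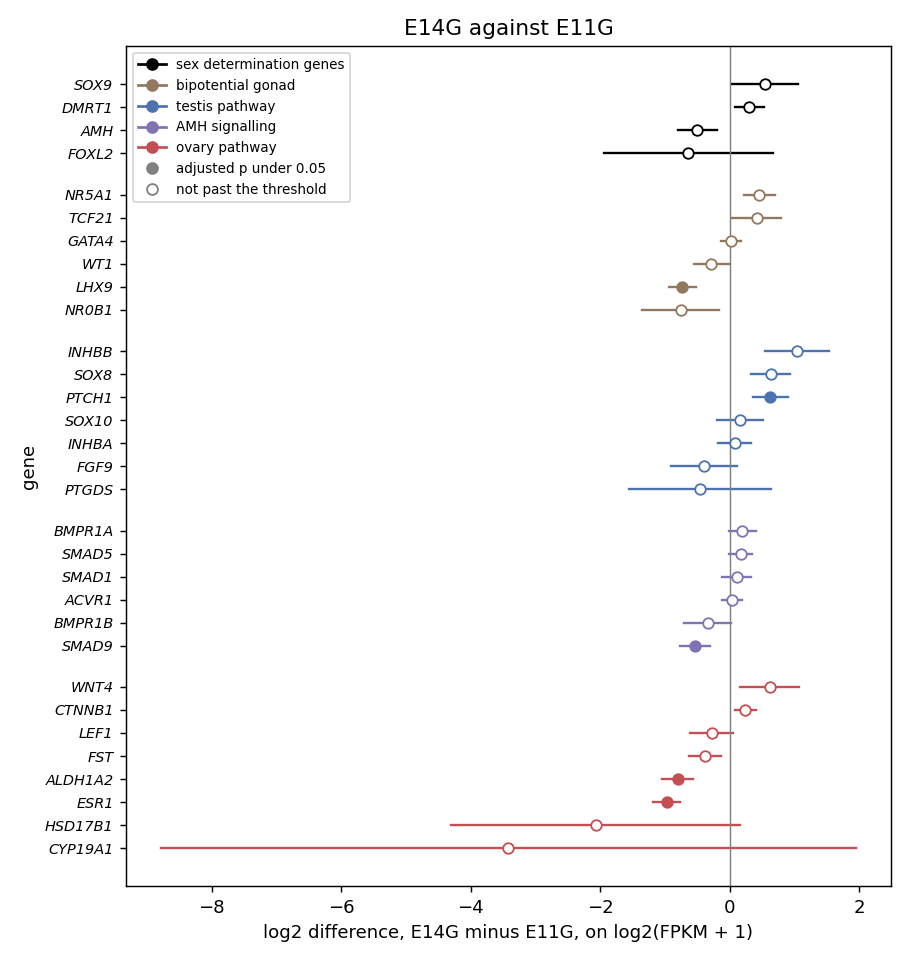
Log2 differences of E14G minus E11G on log2(FPKM + 1) with 95% intervals from limma (points and bars) for the sex determination genes and the genes of 4 lists, with filled points for adjusted p under 0.05. The intervals of AMH (-0.50), SOX9 (0.55) and DMRT1 (0.30) are open points on either side of 0, and the widest bar is that of CYP19A1, which had 115.9 FPKM in T1 and under 0.1 FPKM elsewhere.

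Against blastodermal cells, which precede gonad formation, all 4 genes passed the threshold, as did 80.3% of all transcripts (39.2% higher and 41.1% lower in the gonads). AMH was higher in the embryonic gonads by 9.17 (SE 0.10, adjusted p = 2.17e-06 by limma), a 577-fold difference on the log2(FPKM + 1) scale. DMRT1 was higher by 5.22 (SE 0.07, adjusted p = 2.42e-06), or 37.3-fold, and SOX9 by 2.32 (SE 0.17, adjusted p = 0.000115), or 4.99-fold. FOXL2 was lower in the gonads by -5.55 (SE 0.45, adjusted p = 0.000143), a 46.9-fold difference. The libraries of gonads and BC did not overlap for any of the 4 genes, nor for 82.6% of all transcripts (40.3% higher and 42.3% lower in the gonads). In whole tissue, fewer cells of a type and less RNA per cell cannot be told apart.

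Without T1, the same comparison gave 9.25 for AMH (adjusted p = 9.88e-05), 5.19 for DMRT1 (adjusted p = 9.88e-05), 2.27 for SOX9 (adjusted p = 0.00098) and -5.94 for FOXL2 (adjusted p = 0.000168) by limma. Each gene kept its direction without T1, the library set apart by the transcripts placed on W.

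**Figure D4:**
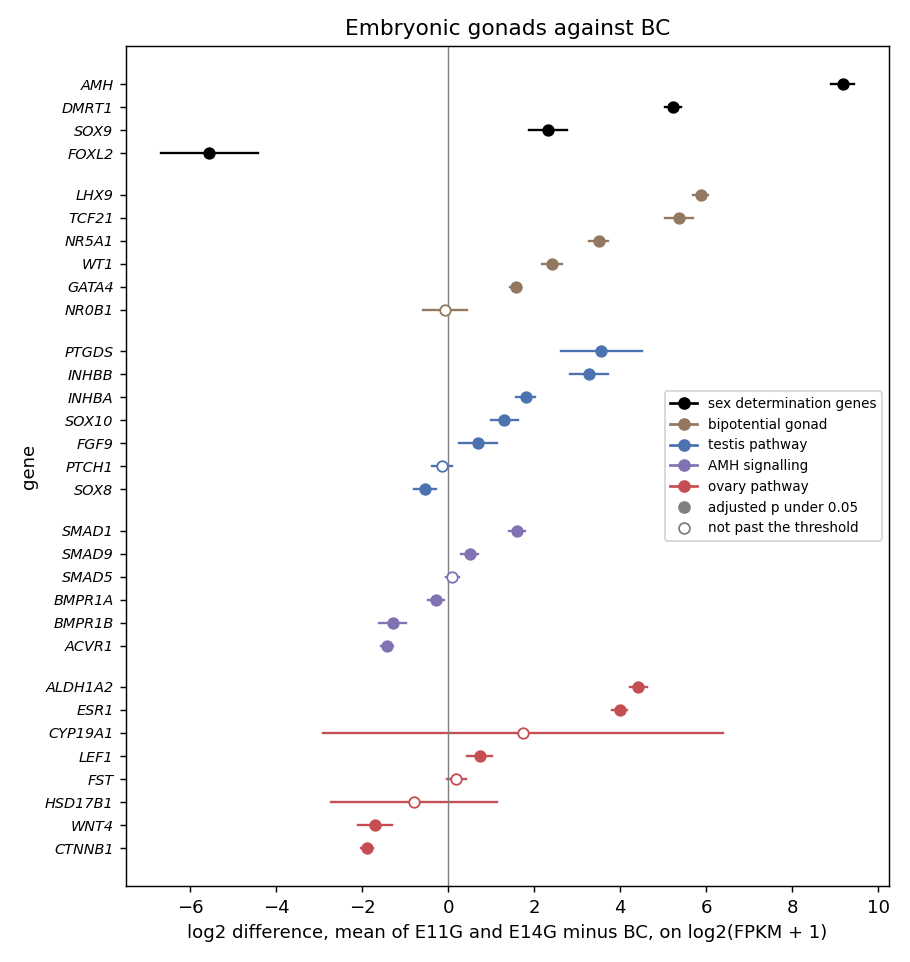
Log2 differences of embryonic gonads (mean of E11G and E14G) minus BC on log2(FPKM + 1) with 95% intervals from limma (points and bars) for the same genes, with filled points for adjusted p under 0.05. AMH (9.17) has the largest difference of the genes drawn, DMRT1 (5.22) lies with LHX9 and TCF21, and FOXL2 (-5.55) has the lowest value.

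Of the bipotential gonad genes, 5 of 6 were higher in the gonads than in BC and none was lower. Over all transcripts, 39.2% were higher and 41.1% lower. LHX9 had 0.222 and 0.181 FPKM in BC (5.87, adjusted p = 2.35e-06 by limma), and NR5A1 had 1.67 and 2.07 FPKM (3.50, adjusted p = 5.15e-06). NR0B1, the nuclear receptor DAX-1, had 35.3 and 37.4 FPKM in BC and 22.1 to 55.02 FPKM in the gonads, and did not pass (-0.08, adjusted p = 0.735). The median of the list was 2.96, against -0.02 over all transcripts.

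Testis genes were mixed, with 5 of 7 higher and 1 lower, beside 39.2% and 41.1% of all transcripts. INHBB was higher by 3.27 (adjusted p = 3.35e-05 by limma), with 2.25 and 2.35 FPKM in BC. SOX8 was lower by -0.54 (adjusted p = 0.00431), the direction opposite to SOX9, at 2.72 and 2.69 FPKM in BC and 0.877 to 2.22 FPKM in the gonads. In the AMH pathway 2 of 6 genes were higher and 3 lower, and SMAD5 did not pass (0.09, adjusted p = 0.204). The 3 lower genes were the type I receptors ACVR1 (-1.42, adjusted p = 1.29e-05), BMPR1B (-1.29) and BMPR1A (-0.28), against 9.17 for their ligand AMH.

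Of the ovary genes, 3 of 8 were higher in the gonads and 2 lower, beside 39.2% and 41.1% of all transcripts. ALDH1A2 (4.42, adjusted p = 3.15e-06 by limma) and ESR1 (3.99, adjusted p = 3.06e-06) were higher. ESR1 had 0.0132 and 0.0420 FPKM in BC, where FOXL2 was at its highest. WNT4, a secreted ligand of ovarian development in mammals, was lower in the gonads with 4.52 to 8.60 FPKM against 19.6 and 27.5 FPKM (-1.70, adjusted p = 0.000245). CTNNB1, which encodes the WNT effector beta-catenin, was lower by -1.88 (adjusted p = 8.27e-06). CYP19A1, a known FOXL2 target, was listed at 0 in both BC libraries where FOXL2 had 68.3 and 82.6 FPKM. Whether FOXL2 acts on CYP19A1 or ESR1 in these tissues was not tested. Without T1, 3 of 7 ovary genes tested were higher and 3 lower, since CYP19A1 no longer reached 1 FPKM in any library and HSD17B1 passed as lower in the gonads (-1.50, adjusted p = 0.000703 by limma). The other lists had the same genes past the threshold in the same direction without T1.

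Markers of other cells did not all move in the same direction between BC and the gonads. The summed FPKM of 4 Leydig cell genes, of which the HSD3B2 entry is named HSD3B1 in the table, was 443, 308, 467 and 451 in T1 to T4 and 5.89 and 6.08 in T5 and T6. All 4 were higher in the gonads, as were 39.2% of all transcripts. STAR, which brings cholesterol into mitochondria, had 26.1, 8.87, 18.2 and 16.7 FPKM in T1 to T4. CYP17A1 had 217, 110, 228 and 225 FPKM, so that T2 was the lowest gonad library for both genes. INSL3, a Leydig cell hormone, was not matched. The matched blood genes, all globins, summed to 1833, 2008, 2382 and 2828 FPKM in T1 to T4 and to about 2.04 and 1.94 FPKM in BC. The blood genes ALAS2 and GATA1 were not matched. All 4 of the blood genes tested were higher in the gonads, beside the same 39.2% of all transcripts. From E11G to E14G HBE1 rose (0.49) and HBZ, an embryonic globin, fell (-1.98), and neither passed without T1. Over all transcripts, 1.52% rose and 2.32% fell between these stages with T1 included. The rows of HBE1 and HBBA cover the same span of a scaffold, so how reads were divided between them is uncertain.

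The germ cell genes summed to 210, 198, 147 and 134 FPKM in T1 to T4 and to 2056 and 2210 FPKM in BC, where most of it came from the pluripotency factors NANOG and POU5F3. These were also the 2 genes of the list that fell from E11G to E14G (1 of them passed without T1). Over all transcripts, 2.32% fell between these stages with T1 included. Against BC, NANOG and POU5F3 were lower in the gonads, while DDX4, DAZL and PIWIL1 were higher. That is 3 of 5 genes higher and 2 lower, beside 39.2% and 41.1% of all transcripts. The germ cell helicase DDX4 had 17.6 to 26.2 FPKM in the gonads and 5.27 and 5.68 FPKM in BC. From E11G to E14G, PIWIL1 (0.64), DDX4 (0.28) and DAZL (-0.21) did not pass. PAX2, the 1 mesonephros marker of 5 that was matched, had 2.13 to 2.68 FPKM in the gonads and 0.458 and 0.505 FPKM in BC. TH, an enzyme of catecholamine synthesis and a marker of adrenal medulla and nerve, had 2.68 FPKM in T1 and at most 0.111 FPKM in the other gonad libraries. In BC it had 0.519 and 0.678 FPKM. SOX2, the other matched gene of that list, had 0.563, 0.384, 0.0475 and 0.155 FPKM in T1 to T4. It had 3.09 and 4.26 FPKM in BC, so it did not set T1 apart as TH did. The part of these other cells in the levels of AMH, SOX9, DMRT1 and FOXL2 was not tested.

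Likeness to each member was measured as Pearson's r of log2(FPKM + 1) over the 6 libraries, among the 4554 named transcripts that reached 5 FPKM in some library. It is a description, since the gap between the tissues dominates it and libraries share their stage. Nearest to AMH were EVC (r = 0.9999), PAQR8 (0.9998) and ITGA1 (0.9997). EVC had 11.1, 11.96, 10.2 and 10.3 FPKM in T1 to T4 and 1.304 and 1.295 FPKM in BC, the same order of E11 over E14 as AMH. Nearest to SOX9 were SGCB (0.9995), CPPED1 (0.998) and HEXA (0.997). Nearest to DMRT1 was HSD3B1 (0.9998), with 64.4, 61.8, 75.2 and 71.9 FPKM in T1 to T4 and 0.422 and 0.314 FPKM in T5 and T6, followed by HIPK3 and SERHL. For FOXL2 they were EIF3L (0.9993), POU2F1 (0.999) and DYRK1A (0.999), all of which were well expressed in the gonads too. A looser cut, r of at least 0.95, was reached by 22.2% of the candidates with AMH, 17.8% with SOX9, 22.6% with DMRT1 and 31.4% with FOXL2.

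The small RNA data gave a second readout at the same loci. The authors called piRNA clusters in 8 libraries of periodate-treated small RNA, 2 each from BC (Leghorn), cultured male PGCs of E7 gonads (Arbor Acres broiler), E11G and E14G (each of Cobb 500 and Leghorn), with 1284 to 2070 clusters per library. No cluster overlapped AMH, SOX9, DMRT1 or FOXL2 in any of the 8 libraries. AMH had the closest one, on chromosome 28 at 10536 to 13643 bases in all libraries of PGCs, E11G and E14G, and at 1941899 and 1941978 bases in BC. This cluster began between 2033522 and 2036629, beyond SF3A2 and either inside PLEKHJ1 or just past it. For DMRT1 the nearest cluster was 253936 to 259349 bases away in all 8 libraries. The nearest clusters lay at least 2390459 bases from SOX9. For FOXL2 the nearest lay 483274 bases away in 1 PGC library and at least 2231733 bases away in the other libraries. The share of all transcripts that overlap a cluster, or lie as near to a cluster, was not computed. Whether the absence of overlap and these distances are particular to AMH, SOX9, DMRT1 and FOXL2 was thus not tested. The lists hold called clusters only, so piRNAs mapped to the genes outside them are not analysed here. The headers of the PGC lists name E6 PGCs as the input, and the E7 stage is that of the labels.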

How the data were processed

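RNA-seq libraries of 3 stages, with 2 libraries each, were analysed from the table of FPKM that the authors deposited. Per the labels and the study's methods, the authors mapped paired reads with TopHat2, assembled transcripts with Cufflinks 2.2.1 on galGal5 and computed FPKM with Cuffnorm, which scales across libraries. Isoforms were filtered by the authors before deposit. The table holds fractional FPKM and no counts, so the depth is unknown and neither intervals for counting error nor limits for values of 0 were computed. The FPKM of a library summed to between 709358 and 1050326. Transcript starts were shifted to count from 1.

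The 22368 of 42501 transcripts that reached 1 FPKM in some library were fitted on log2(FPKM + 1) with limma 3.58.1 in R 4.3.3, with a mean-variance trend and all libraries in the model. P-values were adjusted by Benjamini-Hochberg over all of these transcripts, with a threshold of 0.05. Fold changes on this scale understate those of low genes. The fit was also run on simulated data with independent normal noise and no deviating library. Its outcome is not given here, so it is no check of the calls.

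AMH, SOX9, DMRT1 and FOXL2 and the lists around them were chosen with earlier results of these data known. Genes of the lists could be named, and for each member the 3 named transcripts nearest by Pearson's r. Symbols came from RefSeq identifiers for 6992 transcripts. Genes without a matched transcript were EMX2, CBX2, HEMGN, DMRT3, DHH, CYP26B1, CLDN11, AMHR2, SMAD4, INSL3, DND1, PRDM1, HBG2, ALAS2, GATA1, PAX8, LHX1, CUBN, LRP2, DBH and CHGA. Some genes of the lists are not reported here. Of a gene with 2 rows (INHA, HBBA, HBE1), the one with the higher mean FPKM was used. ACVR1 was matched through the symbol ATVR1 after the table had been seen. The lists of piRNA clusters, which the authors deposited 1 per library with other values such as positions and hits, were used for distances only. A planned search for promoter motifs was not run.

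Alternatives were pseudocounts of 0.1 and 5, no filter and a filter at 5 FPKM, median-ratio and quantile scaling, no trend, array weights, gonad libraries alone and each library left out.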

Additional observations from a re-analysis of the deposited data

How the results depend on the processing

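Between embryonic gonads and BC, AMH, SOX9, DMRT1 and FOXL2 kept their direction and stayed past the threshold in all 14 alternatives (AMH 8.45 to 9.40, SOX9 1.56 to 2.64, DMRT1 3.52 to 6.37, FOXL2 -7.10 to -3.80, log2). Leaving out single libraries gave 9.10 to 9.25 for AMH, 2.11 to 2.53 for SOX9, 5.18 to 5.26 for DMRT1 and -5.94 to -5.17 for FOXL2. With at least 5 FPKM required, 4783 transcripts were higher in the gonads in place of 8760, where fewer transcripts were tested.

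Between E14G and E11G, AMH passed the threshold under quantile normalization (-0.52, adjusted p = 0.0377 by limma, against 0.0882). Over all 15 alternatives, its adjusted p was 0.0377 to 0.238. Leaving out single libraries gave -0.66 to -0.35 for AMH, 0.34 to 0.75 for SOX9, 0.23 to 0.38 for DMRT1 and -1.41 to 0.13 for FOXL2, where 0.13 came from leaving out T1 and was the reversed value. The count of transcripts called was less stable. Against 340 higher and 518 lower, array weights gave 215 higher, a minimum of 5 FPKM gave 252 lower, and the gonad libraries alone gave 1 higher and 1 lower. Leaving out single libraries gave 1 to 132 higher and 1 to 187 lower, with the lowest counts without T5 or T6, 9 and 44 without T1, 52 and 164 without T2, 132 and 187 without T3, and 15 and 14 without T4. When single libraries were left out, 0 to 2 ovary genes, 0 to 2 germ cell genes, 0 to 1 testis genes and 0 to 1 blood genes passed the threshold, and the calls of LHX9 among the bipotential genes and of SMAD9 in the AMH pathway were lost (0 genes) whichever library was left out. The count of the AMH pathway changed in 11 of the 15 alternatives. The cause was not tested.

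With the span of AMH extended by 50 kb, 6 libraries had a piRNA cluster at it in place of 0. How many of all transcripts have a cluster within 50 kb was not counted. No paired analysis was possible because the labels of the RNA-seq libraries carry no replicate numbers and the small RNA lists entered no test. The depth of the libraries is unknown, so the counting error behind the lowest values, such as those of FOXL2 in the gonads, cannot be given.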

Other observations

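The library labelled E11 male gonad T1 was looked at further after its values had been seen, by counting transcripts with at least 5 FPKM in 1 gonad library and at least 10-fold the level of every other one. There were 33 in T1, 17 in T2, 15 in T3 and 42 in T4, so that T1 did not have the highest number. Transcripts on W were found among those of T1 (2) and not among those of T2, T3 and T4 (0 each). Beside CYP19A1, HSD17B1 and HNRNPKL, the transcripts of T1 included NTN1, the axon guidance ligand netrin-1, with 7.86 FPKM in T1 and at most 0.109 FPKM in the other gonad libraries. STMN2, a neuronal regulator of microtubules, had 9.45 FPKM in T1 against 0.201, 0.342 and 0.516 FPKM in T2, T3 and T4. DRD4, a dopamine receptor, had 5.23 FPKM in T1 against 0.219 to 0.289 FPKM, and SST7 had 19.1 FPKM against 0.0844 to 0.751 FPKM. These gaps are what the rule selects. In BC, DRD4 had 8.78 and 8.79 FPKM, STMN2 4.41 and 4.77, SST7 3.73 and 3.22, and NTN1 1.07 and 1.86. The rest of the 12 named transcripts of T1 were microRNA genes. The highest of them, MIR3528, had 117 FPKM in T1 and was listed at 0 in every other library. It spans only 8208158 to 8208254 on chromosome 17, and the other microRNA genes had 14.5 to 15.5 FPKM in T1. At such short lengths few fragments give a high FPKM. The fragment counts are not known, and the numbers of transcripts per library above are not corrected for this. AMH, SOX9, DMRT1 and FOXL2 did not meet this rule in T1. FOXL2 had the largest relative gap between T1 and T2 of the 4 genes, at 2.45 and 0.188 FPKM, but stayed under the minimum of 5 FPKM.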
